A study of Mus musculus with 27 samples.

Results

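Colon tissue of mice that drank 15% ethanol for 8 weeks (EtOH) was compared with colon tissue of mice that drank water (control). The comparison uses the 8 libraries whose labels give colon, tissue and one of these treatments, 4 EtOH and 4 control, out of 27 libraries in the series. All mice were C57BL/6, an inbred laboratory strain with no transgene or deletion named in the labels. Age, sex, the part of the colon that was cut and whether the muscle wall was removed are not given in the sources used here. The remaining libraries are jejunum tissue (4 EtOH, 3 control) and organoids of both segments, and jejunum tissue is used below only for the test of a difference between segments.

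The labels number the donors D1 to D4 within each group, and the same numbers recur under both treatments. Nothing in the labels says that the donors of a group were separate litters or cages, so p-values measure the spread between these libraries. Levels are given as CPM, counts scaled to library size with edgeR's TMM factors, from a 3' end assay that reads near the end of a transcript. Such CPM need no correction for transcript length. Values of a group are always listed in the order of donors D1, D2, D3 and D4.

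The colon is lined by a single sheet of epithelium that renews itself from stem cells at the base of the crypts. Its absorptive colonocytes take up salt, water and short-chain fatty acids, its goblet cells secrete the mucus layer, and tight junctions between neighbouring cells limit what passes from the lumen. Drinking ethanol reaches the colon mainly through the blood, and ethanol and its product acetaldehyde are known as agents that can open tight junctions in cultured epithelium. The study asked about intestinal permeability after ethanol drinking, so junction, mucus, defence and ethanol-metabolism genes are given here with their values whether or not they passed a test.

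Total counts ran from 6657233 to 8356918 in EtOH libraries and from 4598706 to 8424316 in control libraries. The entry Rn45s, the precursor of ribosomal RNA, took 43.0% of the counts of EtOH D1 and 18.3 to 24.6% of each of the other 7. The mean share was 26.0 ± 11.7% in EtOH and 22.5 ± 2.86% in control libraries (SD, n = 4 each), and a two-sided exact permutation test gave p = 0.743, where 4 against 4 cannot go below 0.0286. Genes with at least 1 count numbered 15760 to 16066 in EtOH and 15363 to 16207 in control libraries (exact permutation p = 0.629).

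The 8 libraries differed in markers of position along the colon and of muscle. Hoxb13, a homeobox gene of the posterior end of the gut, was at 66.8, 295.6, 0.0732 and 0.0624 CPM in EtOH libraries and at 65.1, 0, 0.113 and 0 CPM in control libraries. EtOH D1, EtOH D2 and control D1 therefore held distal transcripts that the other 5 lacked. In the same 3 libraries the colonocyte gene Car1, a carbonic anhydrase of the proximal colon, was at 687 and 179 CPM (EtOH D1 and D2) and 296 CPM (control D1), while the other 5 ran from 6478 to 12340 CPM. Smooth muscle also differed, since the summed level of 24 smooth muscle genes was 17130, 3418, 3801 and 4899 CPM in EtOH and 12640, 4023, 4771 and 4581 CPM in control libraries. Distal transcripts were thus found in 2 EtOH libraries and 1 control library, and much muscle RNA in 1 library of each group.

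**Figure D1:**
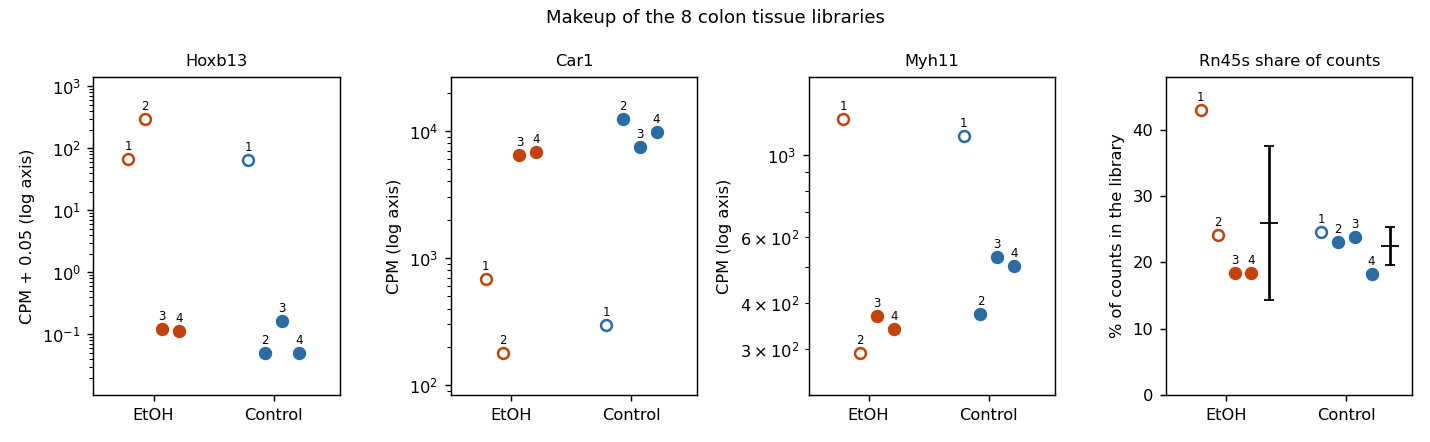
Makeup of the 8 colon tissue libraries: CPM of Hoxb13, Car1 and Myh11 on log axes and the share of counts taken by Rn45s in %, with 1 point per library, its donor number above it, EtOH left of control, and mean ± SD bars in the last panel. Open points are the 3 libraries with distal Hox transcripts, which also have the lowest Car1 levels (179 to 687 CPM), and EtOH D1 alone reaches 43.0% Rn45s.

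Only 1 of 13275 genes tested passed a Benjamini-Hochberg adjusted p of 0.05 in edgeR's quasi-likelihood test, 0.00753% of genes, and it was lower in EtOH. Without adjustment, 326 genes (2.46%) had p under 0.05, of which 161 (1.21%) had a lower and 165 (1.24%) a higher level in EtOH colon. For 153 genes (1.15%) every EtOH value lay below every control value, and for 292 genes (2.20%) every EtOH value lay above. The median log2 fold change over all genes was -0.0018. A fit of the 8 colon libraries alone, by the same test, passed 0 of 12819 genes (smallest adjusted p = 0.287). In what follows a gene is said to rise or fall only if it passed the adjusted threshold, and all others are given as values.

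**Figure D2:**
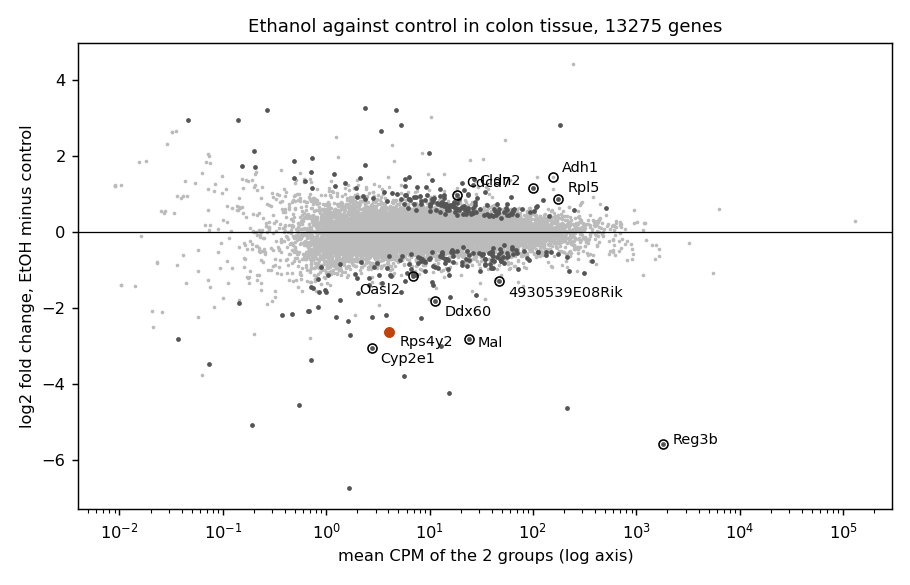
Log2 fold change of EtOH over control against the mean CPM of the 2 groups (log axis) for 13275 genes in colon tissue. Light points are genes at an unadjusted p of 0.05 or above, dark points the 326 genes below it, the filled orange point is Rps4y2, the only gene that passed the adjusted threshold, and circled genes are named in the text.

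The gene that fell was Rps4y2, a copy of the small-subunit ribosomal protein gene Rps4x that RefSeq lists as Rps4l, a transcribed pseudogene at chr6:148354656-148355596 of GRCm38.p6. It was at 0.919, 1.02, 1.17 and 1.31 CPM in EtOH libraries and at 3.43, 9.84, 6.56 and 7.89 CPM in control libraries, from 11, 14, 16 and 21 against 61, 78, 58 and 96 counts. The groups did not overlap, and the highest EtOH value lay below the lowest control value. The log2 fold change was -2.62 ± 0.40 (SE, n = 4 each; adjusted p = 0.0377). Because Rps4y2 resembles Rps4x, reads could be split between them, and its level is uncertain for that reason. Rps4x itself was at 71.9, 140.6, 65.2 and 74.0 CPM in EtOH and 83.8, 58.8, 66.1 and 101.2 CPM in control colon, groups that overlapped.

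Rps4y2 also read lower in the jejunum of other libraries of the series, at 2.53, 7.23, 5.15 and 3.555 CPM in EtOH jejunum tissue and 14.2, 11.9 and 10.04 CPM in control jejunum tissue. These groups did not overlap either, but the log2 fold change of -1.37 ± 0.41 did not pass (adjusted p = 0.211). In jejunum organoids it was at 5.55, 8.19, 14.7 and 2.26 CPM in EtOH and 8.44, 15.0, 16.1 and 24.9 CPM in control libraries, groups that overlapped. These organoid values use TMM factors of all 27 libraries, while tissue values use those of the 15 tissue libraries. The colon call held in 6 of 21 other settings, while the fold change stayed between -2.85 and -2.30 in all of them. Without the 3 distal libraries it was -2.67 ± 0.51 with an adjusted p of 0.162.

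Interferon-stimulated genes had mostly lower values in EtOH colon, although none of the list passed the adjusted threshold. Interferons signal through a complex of transcription factors that includes IRF9 and switches on antiviral genes by binding a DNA element with a repeated GAAA core. Of 38 genes on the list, 35 were tested, and 31 had a negative and 4 a positive fold change, where 50.2% of all genes were negative. The median was -0.56 against -0.0018 for all genes tested. At an unadjusted p under 0.05 in edgeR, 9 of the 35 were lower (1.21% of all genes) and 0 higher (1.24% of all genes). In 5 of the 35 every EtOH value lay below every control value (1.15% of all genes).

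The summed level of the list was 255.0, 248.5, 308.8 and 336.2 CPM in EtOH libraries against 379.5, 495.0, 446.7 and 370.3 CPM in control libraries. The groups did not overlap, and the 2 lowest libraries were the distal EtOH D1 and D2. Among the 5 libraries without distal transcripts the sums were 308.8 and 336.2 against 495.0, 446.7 and 370.3 CPM, which still do not overlap. In that smaller comparison 27 of the 35 genes were negative, where 48.8% of all genes were negative, and the median was -0.38. At an unadjusted p under 0.05 in edgeR 5 were lower (1.21% of all genes), and 16 had group values apart and lower (15.3% of all genes). Bulk tissue cannot tell fewer cells of a type from less RNA per cell.

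Ddx60, an interferon-inducible helicase of antiviral sensing that is not on the list, had the second smallest p-value of all genes. It was at 4.596, 2.34, 5.42 and 7.61 CPM in EtOH and 10.8, 24.1, 16.4 and 19.9 CPM in control libraries. Every EtOH library lay below every control library, and the log2 fold change was -1.82 ± 0.35 (adjusted p = 0.326 in edgeR). DESeq2 and limma-voom with sample weights called it.

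Oasl2, a protein of the oligoadenylate synthetase family, was at 5.01, 3.73, 3.51 and 4.99 CPM in EtOH and 12.5, 11.99, 7.57 and 6.33 CPM in control libraries. Its groups did not overlap (log2 fold change -1.15 ± 0.27, adjusted p = 1). Isg15, a ubiquitin-like modifier, was at 3.26, 1.76, 2.49 and 2.99 CPM in EtOH and 7.53, 7.57, 2.83 and 4.85 CPM in control libraries, where only control D3 fell within the EtOH range. Ifit1, which binds viral RNA, was at 4.43, 1.24, 10.9 and 12.6 CPM in EtOH and 11.6, 42.4, 24.4 and 18.2 CPM in control libraries, with control D1 inside the EtOH range. Of these, EtOH D2 held the lowest Isg15 and Ifit1 values.

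The fold changes of Irf9 and Dhx58 were smaller than those of Oasl2, Isg15 and Ifit1. Irf9 was at 14.9, 17.4, 21.5 and 22.8 CPM in EtOH and 29.0, 33.2, 25.0 and 29.0 CPM in control libraries, groups that did not overlap (log2 fold change -0.60 ± 0.21). Dhx58, a regulator of RIG-I-like receptors, was at 2.005, 2.12, 2.12 and 2.06 CPM in EtOH and 3.15, 3.79, 2.71 and 2.79 CPM in control libraries. Its group values were apart too, at a log2 fold change of -0.58 ± 0.40. Irf7, the amplifier of the interferon response, ran from 7.68 to 51.6 CPM in EtOH and from 23.1 to 98.9 CPM in control libraries, and its groups overlapped. Ifi27l2a ran from 4.54 to 7.24 CPM in EtOH and from 7.57 to 26.4 CPM in control libraries, which did not overlap. Gm14446, listed by RefSeq as Ifit1bl1, was at 13.1, 11.8, 9.22 and 20.3 CPM in EtOH and 27.8, 93.1, 38.2 and 12.2 CPM in control libraries, groups that overlapped.

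**Figure D3:**
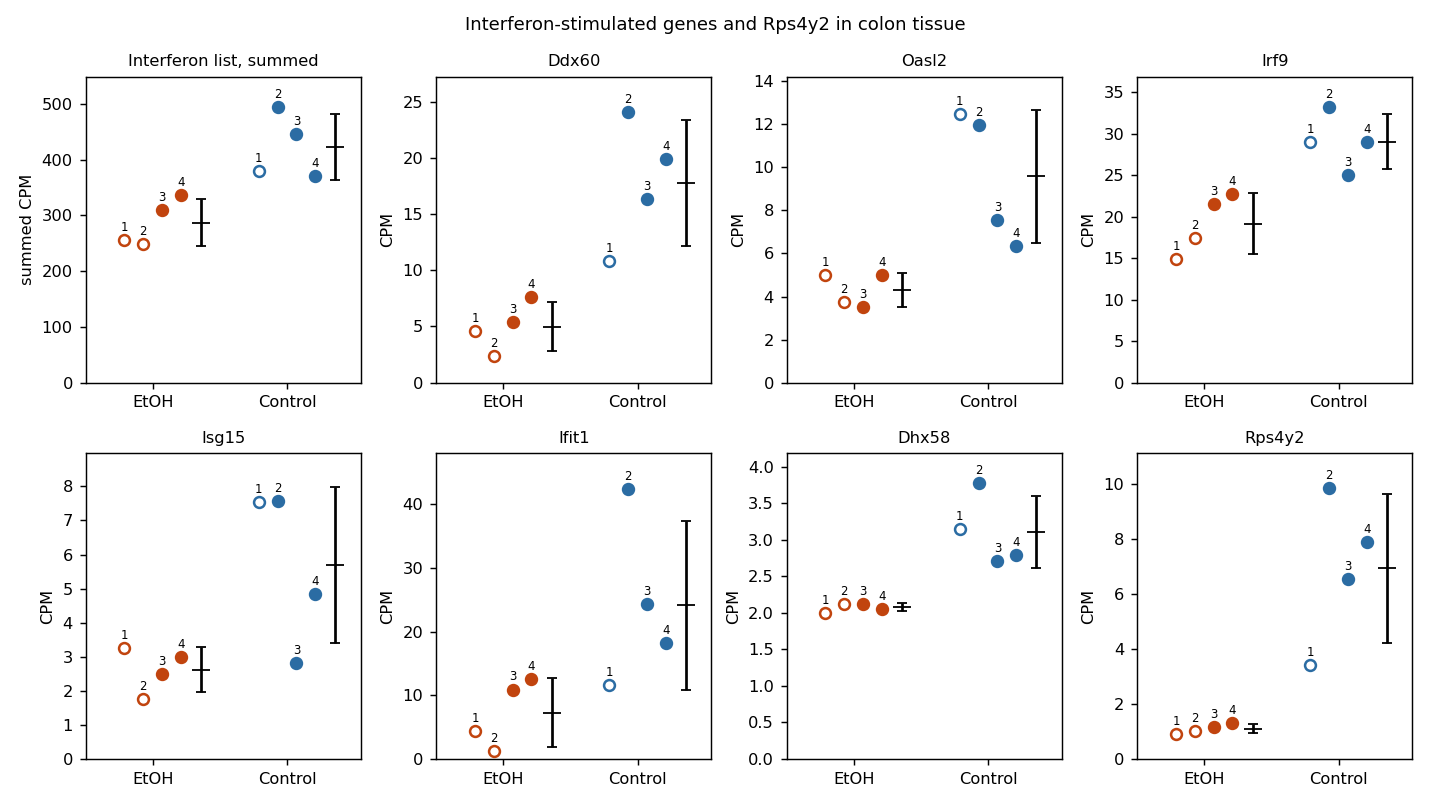
CPM per colon tissue library for the summed interferon list, for 6 interferon-related genes and for Rps4y2, EtOH left of control, with donor numbers above the points and mean ± SD bars (n = 4 each). Open points are the 3 libraries with distal Hox transcripts; in the summed list every EtOH library (248.5 to 336.2 CPM) lies below every control library (370.3 to 495.0 CPM).

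The promoters of the interferon list often hold the element with a repeated GAAA core. The list was made of genes that respond to interferon, and this element serves that response. A high share therefore describes the list and is not a result about ethanol. RefSeq windows of GRCm38.p6, from 250 bases before to 50 bases after the start of transcription, were searched on both strands for GAAANNGAAA, a form of the element bound by IRF9 and its partners. Of the 35 tested list genes 26 had a window, and 16 of those (61.5%) held the motif, against 371 of 9837 windows of all genes tested (3.77%). The windows of 3 genes with the motif are shown because their levels are given above; capitals mark the matches, which overlap in Isg15 and lie on the opposite strand in Ifit1, and each is written 5' to 3' on the gene's strand. They lie at chr8:61927837-61928136 on the plus strand (Ddx60), chr4:156200769-156201068 on the minus strand (Isg15) and chr19:34640639-34640938 on the plus strand (Ifit1).
Ddx60: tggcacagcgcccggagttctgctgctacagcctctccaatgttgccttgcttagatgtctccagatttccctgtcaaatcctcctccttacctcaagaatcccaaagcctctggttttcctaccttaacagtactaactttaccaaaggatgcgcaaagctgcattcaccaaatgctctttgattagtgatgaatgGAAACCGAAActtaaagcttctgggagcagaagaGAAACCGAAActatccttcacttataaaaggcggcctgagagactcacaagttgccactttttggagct
Isg15: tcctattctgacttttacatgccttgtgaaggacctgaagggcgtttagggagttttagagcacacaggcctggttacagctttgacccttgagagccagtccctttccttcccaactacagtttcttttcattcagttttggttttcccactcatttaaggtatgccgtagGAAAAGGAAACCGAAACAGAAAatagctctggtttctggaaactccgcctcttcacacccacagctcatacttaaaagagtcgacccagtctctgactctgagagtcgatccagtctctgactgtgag
Ifit1: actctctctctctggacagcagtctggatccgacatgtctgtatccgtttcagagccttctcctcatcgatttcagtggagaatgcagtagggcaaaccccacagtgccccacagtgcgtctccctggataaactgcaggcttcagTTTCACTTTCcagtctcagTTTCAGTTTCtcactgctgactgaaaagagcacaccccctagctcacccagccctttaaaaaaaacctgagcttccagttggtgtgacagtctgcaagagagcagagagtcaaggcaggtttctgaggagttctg
Oasl2, Irf9 and Irf7 had a window without these letters. A match describes the window and is not a measurement of binding in these mice.

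In jejunum tissue the same list had a median log2 fold change of 0.23, where all genes had a median of 0.17. Ddx60 had a log2 fold change of 0.10 ± 0.37 in jejunum tissue, and the difference between segments, colon minus jejunum, was -1.92 ± 0.51 (adjusted p = 0.518 in edgeR). For Oasl2 the difference was -1.39 ± 0.40 (adjusted p = 0.551) and for Isg15 it was -1.71 ± 0.54 (adjusted p = 0.56). None of these passed, so a difference between colon and jejunum was not shown for any of the 3.

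Other genes with small p-values and lower EtOH values were of mixed function. 4930539E08Rik, listed by RefSeq as Bnip5, was at 31.6, 16.8, 29.5 and 31.4 CPM in EtOH and 40.9, 83.5, 78.4 and 64.2 CPM in control libraries, with no overlap (log2 fold change -1.29 ± 0.29, adjusted p = 1). Hbegf, a ligand of the epidermal growth factor receptor, was at 18.1, 11.5, 18.8 and 16.3 CPM against 21.3, 34.2, 33.7 and 31.6 CPM. Ugcg, the enzyme that makes glucosylceramide, was at 31.1, 32.9, 34.2 and 25.9 CPM in EtOH and 36.0, 55.4, 60.6 and 56.9 CPM in control libraries. In each of these 3 genes the distal library control D1 was the lowest control value, yet it still lay above all EtOH values.

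Nuak2, a kinase of the AMPK family, was at 12.03, 6.95, 13.5 and 9.11 CPM in EtOH and 17.0, 17.9, 20.7 and 16.8 CPM in control libraries, again apart. Mal, an apical sorting protein of epithelia, ran from 1.61 to 8.79 CPM in EtOH and from 11.5 to 106.7 CPM in control libraries, with control D2 far above the other 3. Cdkn1a, the p21 inhibitor of the cell cycle, was at 53.3, 59.1, 76.9 and 87.4 CPM in EtOH and 57.3, 145.4, 113.6 and 140.5 CPM in control libraries. Its groups overlapped through the distal library control D1.

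The 10 genes with the smallest p-values among those higher in EtOH were of mixed function, and none passed (adjusted p = 1 for each). Eif4a1, the helicase of translation initiation, was at 47.2, 57.7, 45.5 and 72.1 CPM in EtOH and 30.1, 45.3, 23.9 and 33.8 CPM in control libraries, which just failed to overlap. Sarnp, an mRNA export factor, was at 27.7, 27.7, 27.2 and 31.4 CPM against 18.8, 17.7, 19.8 and 17.1 CPM, with a clear gap. Farsa, a subunit of phenylalanyl-tRNA synthetase, was at 11.6, 16.6, 15.67 and 28.8 CPM in EtOH and 10.6, 10.8, 7.46 and 7.89 CPM in control libraries. The exon junction helicase Eif4a3 ran from 22.4 to 57.3 CPM in EtOH and from 16.7 to 23.2 CPM in control libraries, overlapping by EtOH D1 alone.

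The other members of that 10 were Rps14 and Mtfp1, whose groups were apart, and Tuba4a, Tmem63b, Nxpe2 and Cyp2c40, whose groups overlapped. Tmem63b (log2 fold change 1.10 ± 0.33) was at 59.5 CPM in EtOH D4, where the other 3 EtOH libraries ran from 16.4 to 22.1 CPM. Nxpe2 and Cyp2c40 were highest in the distal library EtOH D2, at 84.7 and 15.4 CPM.

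Ribosomal protein genes had mostly higher values in EtOH colon. Of 38 on the list, 36 were tested and 0 called, 32 had a positive fold change, where 49.7% of all genes were positive, and the median was 0.27. Every EtOH value lay above every control value in 11 of the 36, against 2.20% of all genes. Rpl5 was at 209.1, 321.5, 171.8 and 208.1 CPM in EtOH and 140.8, 139.4, 91.0 and 123.8 CPM in control libraries (log2 fold change 0.88 ± 0.32). Rps14 was at 57.5, 83.9, 69.8 and 103.4 CPM against 49.5, 57.3, 47.7 and 51.0 CPM, apart by a narrow margin. Rps2 was at 9.61, 19.8, 11.3 and 10.4 CPM against 8.03, 8.08, 5.42 and 8.96 CPM. The summed level of the list was 7289, 10330, 6707 and 6489 CPM in EtOH and 6583, 6519, 6096 and 6858 CPM in control libraries, groups that overlapped, with the distal EtOH D2 far above the rest. The median was 0.13 without EtOH D2, and without the 3 distal libraries 22 of 36 were positive with a median of 0.14. Ribosomal protein genes have many processed copies in the genome, so their counts are uncertain.

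Heat shock genes, which encode chaperones and their partners, were positive in 21 of 21, with a median of 0.33 and 0 called. Bag3, a co-chaperone of Hsp70, was at 30.7, 36.2, 30.5 and 28.3 CPM in EtOH and 27.9, 18.4, 19.8 and 20.9 CPM in control libraries, with EtOH D4 just above control D1. Dnaja1, an Hsp40 protein, was at 76.8, 60.4, 117.6 and 52.9 CPM in EtOH and 52.8, 52.7, 47.9 and 56.0 CPM in control libraries, groups that overlapped. Stip1, which links Hsp70 to Hsp90, ran from 23.2 to 36.0 CPM in EtOH and from 15.9 to 25.4 CPM in control libraries. The summed level of the list was 1839, 1722, 2052 and 1361 CPM in EtOH and 1704, 1333, 1457 and 1229 CPM in control libraries, groups that overlapped. The median was 0.54 without control D1, and without the 3 distal libraries 16 of 21 were positive and the median was 0.45.

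**Figure D4:**
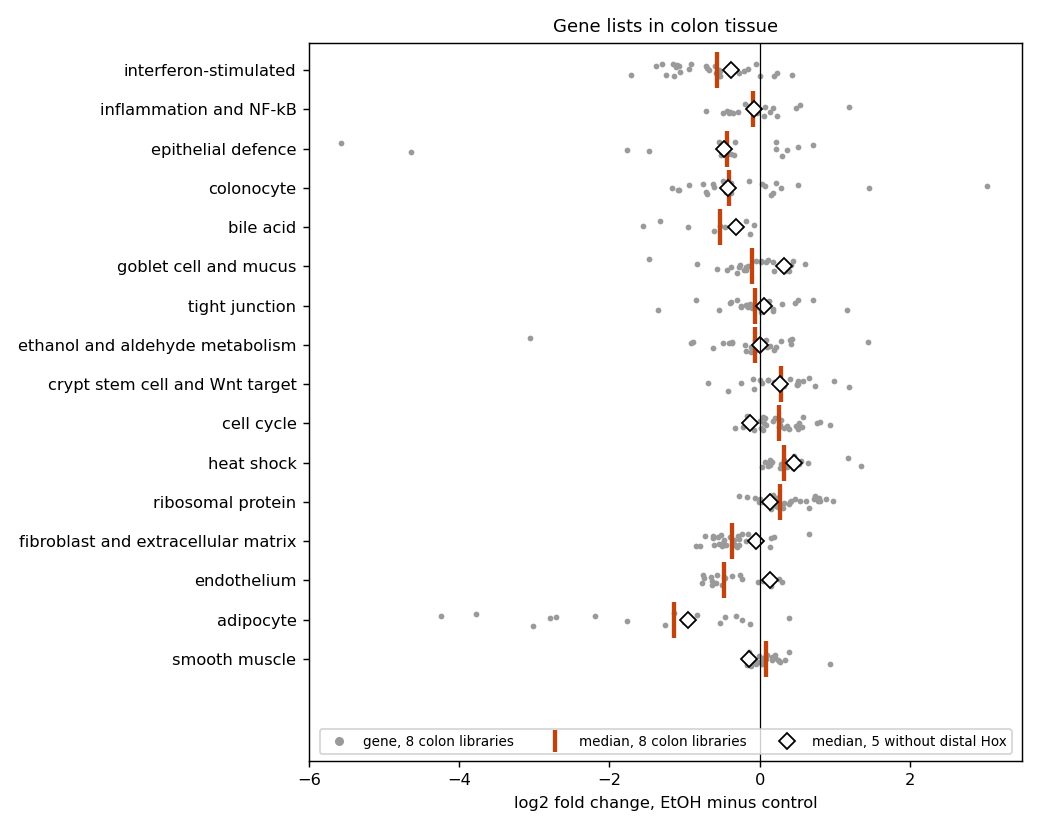
Log2 fold changes of EtOH over control for the tested genes of 16 lists in colon tissue (grey points), with the median of each list from all 8 colon libraries (orange bars) and from the 5 libraries without distal Hox transcripts (open diamonds). The interferon median stays negative (-0.56 and -0.38) and the heat shock median positive (0.33 and 0.45). The medians of the cell cycle, endothelium, goblet cell, tight junction, ethanol metabolism and smooth muscle lists change sign.

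Among tight junction genes, 28 were tested, 13 positive and 15 negative, with a median of -0.07 and none called. Leaving out 1 library gave medians from -0.08 to 0.01, so the list had no steady sign. Cldn2, the claudin that forms a channel for cations and water and is known to rise in leaky epithelium, was at 49.8, 108.3, 243 and 157 CPM in EtOH and 46.7, 77.4, 73.2 and 53.2 CPM in control libraries. EtOH D2, D3 and D4 lay above all control libraries, and EtOH D1 lay within their range. The log2 fold change was 1.16 ± 0.43 (adjusted p = 1). Among the 5 libraries without distal transcripts it was 1.57 ± 0.41 (adjusted p = 0.873).

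Tjp1, the scaffold protein ZO-1 that anchors claudins to actin, was at 45.4, 32.9, 30.1 and 23.9 CPM in EtOH and 42.8, 45.4, 50.6 and 52.7 CPM in control libraries. The groups overlapped only through EtOH D1, and the log2 fold change was -0.53 ± 0.21 (adjusted p = 1). Ocln, the transmembrane protein occludin, was at 15.5, 19.8, 25.3 and 21.9 CPM in EtOH and 14.1, 27.6, 35.7 and 30.6 CPM in control libraries. Its lowest value was the distal library control D1, so the groups overlapped.

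Cldn4, a sealing claudin, was at 10.03, 4.97, 21.0 and 33.2 CPM in EtOH and 19.6, 35.1, 53.5 and 68.7 CPM in control libraries, again with the distal libraries lowest in each group. Cldn3, Cldn7 and Cldn15 had log2 fold changes of -0.18 ± 0.39, -0.30 ± 0.30 and 0.04 ± 0.26, all with overlapping groups. Cdh1, the E-cadherin of adherens junctions, had a log2 fold change of 0.22 ± 0.26. These intervals leave room for changes in either direction.

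The mucus genes varied widely within the EtOH group. Muc2, the gel-forming mucin of goblet cells, was at 1761, 957, 6964 and 20610 CPM in EtOH and 7212, 4358, 4114 and 4216 CPM in control libraries. The 2 distal EtOH libraries were the lowest of all and EtOH D4 was the highest, while the distal control D1 was the highest of its group. Tff3, the trefoil peptide secreted with it, was at 68.8, 93.0, 200.5 and 914 CPM in EtOH and 100.4, 384, 203 and 265 CPM in control libraries. Of 24 goblet and mucus genes tested, 11 were positive and the median was -0.10. The median ran from -0.34 without EtOH D4 to 0.06 without EtOH D2, and its sign also turned without EtOH D1 or control D1; without the distal libraries 19 of 24 were positive and the median was 0.32.

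**Figure D5:**
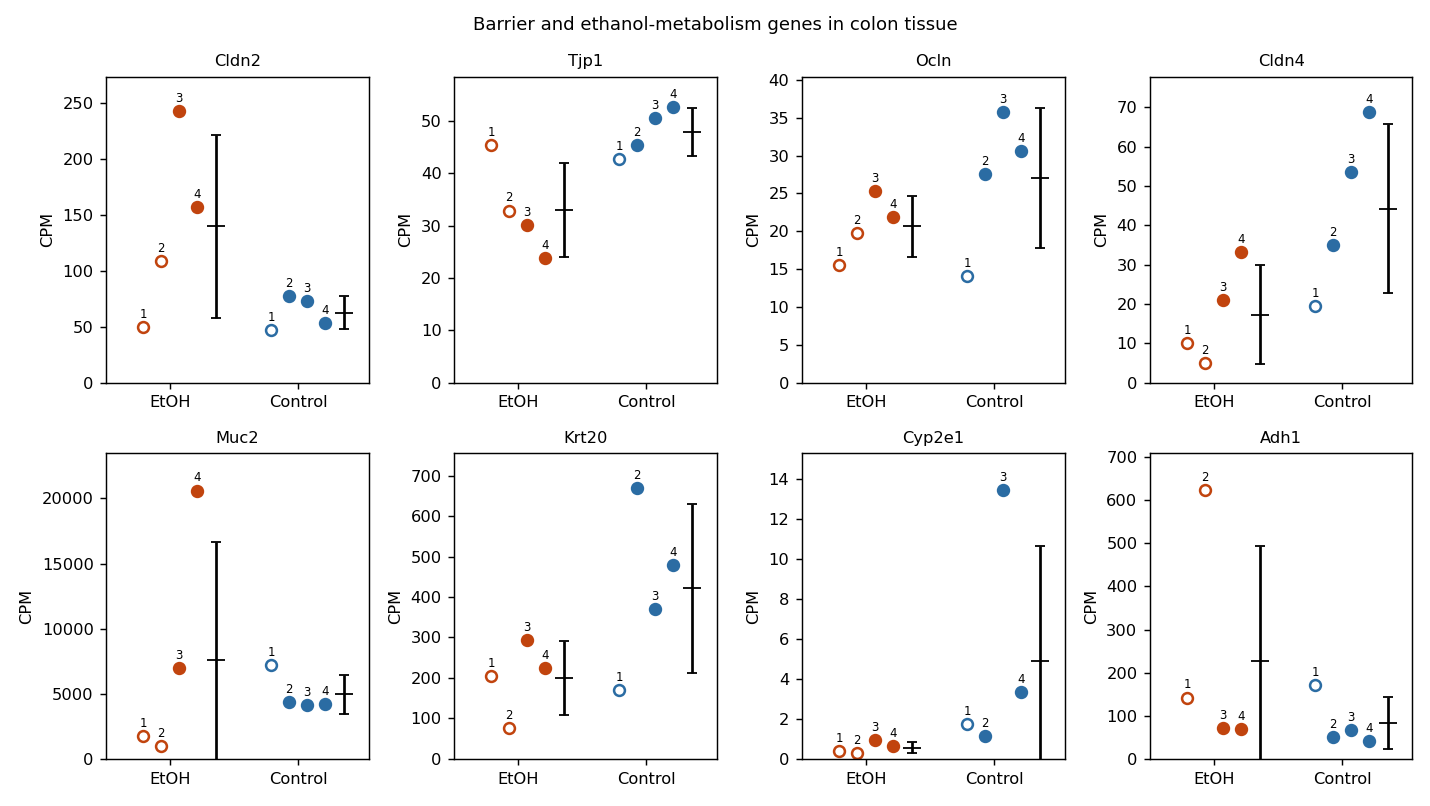
CPM per colon tissue library for Cldn2, Tjp1, Ocln, Cldn4, Muc2, Krt20, Cyp2e1 and Adh1, EtOH left of control, with donor numbers and mean ± SD bars (n = 4 each; bars stop at 0 where the SD exceeds the mean). Open points are the 3 libraries with distal Hox transcripts; only for Cyp2e1 do the groups not overlap (0.293 to 0.952 CPM in EtOH, 1.14 to 13.5 CPM in control).

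Of 25 tested genes of ethanol and aldehyde metabolism, 10 were positive and 15 negative, the median was -0.06 and none was called. Leaving out 1 library gave medians from -0.22 (control D1) to 0.02 (EtOH D1). Cyp2e1, the cytochrome P450 that oxidises ethanol and is known from liver as induced by it, was at 0.418, 0.293, 0.952 and 0.624 CPM in EtOH and 1.74, 1.14, 13.5 and 3.37 CPM in control libraries. Every EtOH value lay below every control value (log2 fold change -3.06 ± 0.90, adjusted p = 1). The margin was narrow and at a low level, with 0.952 CPM in EtOH D3 against 1.14 CPM in control D2. Cyp2e1 is also expressed in fat. Its highest control value was in control D3, where adipocyte genes were highest too. Their summed level there was 812 CPM, against 145.8 to 361.8 CPM in the other 7 libraries. The order differed elsewhere, since control D1 had 1.74 CPM of Cyp2e1 at an adipocyte sum of 176.0 CPM. EtOH D3 had 0.952 CPM at an adipocyte sum of 321.2 CPM. The part of adipose tissue in this difference was not tested.

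Adh1, an alcohol dehydrogenase, was at 142, 623, 72.7 and 70.1 CPM in EtOH and 172, 51.2, 67.5 and 40.8 CPM in control libraries. Its highest values were in the 3 distal libraries, EtOH D2 above all. Aldh2, the mitochondrial enzyme that clears acetaldehyde, had a log2 fold change of 0.41 ± 0.36, and Aldh1b1 of 0.42 ± 0.32. Aldh1a1, which makes retinoic acid, ran from 29.6 to 319 CPM in EtOH and from 60.9 to 404 CPM in control libraries, lowest in the distal ones. Cat, the peroxisomal catalase that can also oxidise ethanol, had a log2 fold change of 0.19 ± 0.33. All 4 had overlapping groups.

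Aldh1l1, a folate enzyme, was called only without the distal libraries and was named after its values were seen. It was at 4.18, 24.8, 0.220 and 0.624 CPM in EtOH and 6.52, 6.43, 2.49 and 4.27 CPM in control libraries. In the fit without the distal libraries 440 genes (3.33%) had an unadjusted p under 0.05 and Aldh1l1 was the 1 gene called (0.00757%). Over all 8 libraries its log2 fold change was 0.59 ± 0.92 (adjusted p = 1), and over the 5 without distal transcripts it was -3.27 ± 0.47 (adjusted p = 0.013), with 3 and 10 counts in the 2 EtOH libraries left.

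Genes of the crypt base and of Wnt signalling, which maintains the stem cells, were positive in 16 of 22 with a median of 0.29, and none was called. Cdca7, a MYC target of dividing cells, was at 17.1, 36.0, 21.3 and 24.5 CPM in EtOH and 14.3, 14.8, 7.69 and 13.0 CPM in control libraries, without overlap. Ascl2, a master transcription factor of intestinal stem cells, was at 5.10, 13.1, 14.5 and 9.05 CPM against 2.36, 3.03, 4.07 and 8.79 CPM, overlapping by control D4 alone. Axin2, a feedback target of Wnt signalling, was at 14.7, 23.8, 16.9 and 15.72 CPM against 13.5, 10.3, 11.5 and 14.5 CPM, apart by a narrow margin. Lgr5, the receptor that marks these stem cells, had a log2 fold change of 0.58 ± 0.45 with overlapping groups. The summed level of the list was 846, 881, 1175 and 982 CPM in EtOH and 871, 1006, 999 and 1056 CPM in control libraries, groups that overlapped. The median of the list was 0.27 without the distal libraries and positive in all 22 other settings.

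Cell cycle genes were positive in 24 of 29 over all libraries, with a median of 0.26, but in 9 of 29 without the distal libraries, with a median of -0.12. The median was 0.05 without EtOH D2, 0.04 without control D3 and 0.48 without control D2. Mki67, expressed in all dividing cells, was at 45.5, 62.1, 27.1 and 21.3 CPM in EtOH and 53.4, 57.7, 27.8 and 42.6 CPM in control libraries. Its groups overlapped, and 3 of its 4 highest values came from the distal libraries.

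Among the differentiated colonocyte genes, 15 of 24 were negative with a median of -0.41, and 20 of 23 were negative without the distal libraries. The median was -0.21 without control D2 and -0.26 without control D3. Krt20, a keratin of mature surface cells, was at 204, 77.0, 294 and 225 CPM in EtOH and 170, 669, 370 and 478 CPM in control libraries. Control D2, D3 and D4 lay above all EtOH libraries, and the distal control D1 lay below 3 of the 4 (log2 fold change -1.08 ± 0.43, adjusted p = 1). Anks4b, a scaffold of the brush border, was at 20.2, 16.2, 20.9 and 15.5 CPM in EtOH and 16.7, 34.3, 35.0 and 34.2 CPM in control libraries, where again only the distal control D1 reached into the EtOH range. Slc26a3, the chloride and bicarbonate exchanger, had a log2 fold change of 0.04 ± 0.44. Krt23, a keratin, was at 7.44, 8.71, 9.01 and 8.36 CPM in EtOH and 2.75, 3.79, 8.03 and 4.19 CPM in control libraries, and only control D3 reached into the EtOH range.

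The bile acid transporters Slc51a and Slc10a2 were nearly absent from the 3 distal libraries. The whole bile acid list was lower there but not absent. It summed to 94.3 (EtOH D1), 118.3 (EtOH D2) and 101.3 CPM (control D1), against 342.8 to 465.2 CPM in the rest. All 9 bile acid genes tested were negative with a median of -0.53. Slc51a, a basolateral bile acid transporter, was at 1.25, 0.585, 92.6 and 67.9 CPM in EtOH and 0.562, 112, 134.5 and 67.1 CPM in control libraries. Slc10a2, the apical bile acid transporter, was at 0.0836, 0.366, 36.3 and 15.6 CPM against 0.337, 68.9, 51.4 and 34.8 CPM. Both were low in EtOH D1, EtOH D2 and control D1. Leaving out 1 library gave list medians from -0.90 (control D1) to -0.20 (control D2), and without the 3 distal libraries 2 of the 9 genes were positive and the median was -0.31.

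The defence peptides Reg3b and Reg3g, C-type lectins that bind bacteria, differed by 1 library. Reg3b was at 5.93, 1.24, 127.8 and 161.9 CPM in EtOH and 1.46, 14100, 57.0 and 56.9 CPM in control libraries. The log2 fold change was -5.58 ± 2.34 over all libraries and 0.95 ± 1.39 without control D2 (adjusted p = 1 in both), and the other 3 control libraries lay within the EtOH range. Reg3g had 1629 CPM in control D2 and between 1.39 and 40.9 CPM in the other 7. Retnlb, a goblet cell peptide induced by bacteria, was at 19.1, 1.32, 0.952 and 3.43 CPM in EtOH and 7.92, 38.7, 0.791 and 21.1 CPM in control libraries. Of 20 tested epithelial defence genes, 14 were negative with a median of -0.44, but the median was 0.08 without control D2. It was -0.27 without EtOH D1 and -0.69 without control D1.

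Genes of inflammation and NF-kB signalling were low, and 10 of the 28 on the list, among them the cytokines Il1b, Il6 and Ifng, had too few counts to be tested. The summed level of the list was 219.7, 184.2, 239.0 and 237.2 CPM in EtOH libraries and 240.5, 307.2, 289.2 and 252.8 CPM in control libraries, groups that were apart by a narrow margin. The inhibitor of NF-kB Nfkbia was its most abundant member, at 116, 107, 123 and 118 CPM in EtOH and 148, 176, 168 and 139 CPM in control libraries, without overlap (log2 fold change -0.44 ± 0.22, adjusted p = 1). Nfkbia supplied a large part of every sum, so the gap between the sums is not independent of this gene. Nfkb2, a subunit of the noncanonical pathway, was at 8.02, 8.05, 7.69 and 7.11 CPM against 11.6, 10.2, 9.38 and 8.30 CPM. Over the 18 genes tested, 10 were negative and 8 positive (highest log2 fold change 1.20). Only Nfkbia and Nfkb2 had groups apart, both lower, where 1.15% of all genes were apart and lower. The median was -0.09, and it ran from -0.30 without EtOH D4 to 0.07 without EtOH D2, so it had no steady sign.

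T cell markers were sparse. Cd3e, a chain of the T cell receptor complex, was at 0, 0.146, 1.10 and 1.56 CPM in EtOH and 0, 1.01, 1.02 and 0.411 CPM in control libraries. The summed level of 22 lymphocyte genes ran from 3.51 to 30.4 CPM in EtOH and from 8.15 to 15.6 CPM in control libraries, and that of 22 macrophage and dendritic cell genes from 62.1 to 160.8 CPM in EtOH and from 76.0 to 148 CPM in control libraries. Other immune genes were not as low. The sum of 16 B and plasma cell genes was 33.5, 69.9, 121.3 and 161.3 CPM in EtOH libraries. In control libraries it was 202.8, 111.9, 155.2 and 27.8 CPM. The sum of 10 MHC class II genes ran from 172.9 to 617.7 CPM in EtOH and from 298.3 to 404.8 CPM in control libraries. All of these sums overlapped between the groups, and a difference in immune cell content was not shown.

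Among stromal lists, adipocyte genes were negative in 16 of 17 with a median of -1.14 (-0.53 without control D3), and their summed level was 145.8, 159.2, 321.2 and 303.3 CPM in EtOH and 176.0, 254.5, 812 and 361.8 CPM in control libraries. Cfd, the adipose factor adipsin, was at 1.003, 1.02, 3.08 and 0.998 CPM against 0.787, 5.05, 97.0 and 14.3 CPM, and Adipoq, which encodes adiponectin, at 0.585, 0.146, 1.76 and 0.499 CPM against 0.0562, 1.64, 35.3 and 5.01 CPM. Control D3 was the highest of all for both, and control D1 the lowest. Whether fat tissue attached to a piece of colon took part in these values was not tested.

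Fibroblast and matrix genes were negative in 24 of 28 with a median of -0.37. The median was -0.71 without EtOH D1, -0.15 without EtOH D2 and -0.03 without control D1, and 13 of 27 were positive without the 3 distal libraries, with a median of -0.05. Sparc, a matrix protein, was at 184, 56.0, 74.5 and 94.3 CPM in EtOH and 323, 123, 139.8 and 118 CPM in control libraries, highest in the 2 libraries with much muscle. Col6a1 ran from 14.1 to 42.6 CPM in EtOH and from 34.2 to 72.9 CPM in control libraries. Bmp4, a ligand of the crypt niche made by mesenchymal cells, was at 28.5, 10.9, 24.5 and 17.4 CPM against 67.6, 23.1, 35.4 and 39.4 CPM, with control D2 inside the EtOH range. Endothelial genes were negative in 15 of 19 over all libraries (median -0.48, from -0.69 without EtOH D4 to -0.16 without EtOH D2), and 10 of 17 were positive without the distal libraries (median 0.14). Of the muscle genes, Acta2, Myh11 and Des had log2 fold changes of 0.26 ± 0.64, -0.17 ± 0.55 and 0.21 ± 0.86, the spread being that between 1 library of each group and the rest.

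Across the 52 lists 0 members were called, and the medians of the 28 lists with at least 20 tested genes ran from -0.56 (interferon) to 0.33 (heat shock). The lists overlap in genes and the libraries in makeup, so these medians describe the 8 libraries and are not independent of each other.

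The EtOH log2 fold change in colon minus that in jejunum tissue passed the adjusted threshold for 0 of 13275 genes (0.0%) in edgeR, while 877 genes (6.61%) had an unadjusted p under 0.05 and DESeq2 called 2. The 3 control jejunum libraries in this test were shallow and held 684906 to 1510057 counts outside Rn45s. Pqlc3 was at 11.6, 13.2, 10.8 and 11.4 CPM in EtOH colon and 13.8, 13.1, 11.3 and 16.4 CPM in control colon, and it ran from 7.66 to 9.95 CPM in EtOH jejunum and from 2.03 to 2.32 CPM in control jejunum, a difference of -2.22 ± 0.40 (adjusted p = 0.301). Lins, Cobll1 and Eif2b1 had colon log2 fold changes of -0.18 ± 0.39, -0.36 ± 0.31 and 0.30 ± 0.30, with overlapping colon groups, and each was below 1 CPM in every control jejunum library.

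In the other direction the genes were Fam161a, Fzd6, Gm15284 and Defa17. Fam161a and Fzd6 had colon log2 fold changes of 0.07 ± 0.58 and 0.10 ± 0.48, with overlapping groups. Defa17, an alpha-defensin of Paneth cells, a cell type of the small intestine, had 4, 4, 4 and 2 counts in EtOH colon and 0, 0, 0 and 1 counts in control colon, against 381 to 1014 CPM in jejunum tissue. Gm15284 ran from 0.293 to 1.76 CPM in EtOH colon and from 0.113 to 0.378 CPM in control colon, against 966 to 4691 CPM in jejunum tissue.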

How the data were processed

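Libraries were made with the Lexogen QuantSeq 3' mRNA-Seq kit, per the labels' protocols. The authors' deposit holds unnormalized counts by gene symbol (23420 genes, 27 libraries) and a normalized table (13560 genes) whose values follow no standard unit and are treated as a score, since no header or label states how the authors made it. Trimmomatic 0.32, BWA, HTSeq, limma and edgeR with build mm10 are named in the submitters' processing notes, without settings; whether counting used strand is not stated there, so overlapping and near-identical genes may share reads. Of the symbols, 99.3% matched RefSeq of GRCm38.p6 (mm10), from which coordinates and promoter windows come.

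From the deposited counts, edgeR 4.0.16 (R 4.3.3) fitted the 15 tissue libraries together by the quasi-likelihood method, with TMM scaling, the default filter on low counts by group and robust estimation, so colon and jejunum share 1 estimate of the spread. Adjusted p-values are Benjamini-Hochberg over 13275 genes, with a threshold of 0.05. Shares of Rn45s and numbers of detected genes were compared with exact permutation tests (scipy 1.17.1). DESeq2 1.42.0, limma 3.58.1, other scalings, library subsets, each library left out, a replicate block and a covariate for distal Hox genes were tried as alternatives. The fit was tested on simulated data. Replicate pairs differed by 12.0 to 171.5 times sampling noise (chi-square per degree of freedom), so none is a duplicate.

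Genes named are the called genes, the 10 smallest p-values in each direction among genes averaging at least 5 CPM, a fixed set of junction, mucus, defence, metabolism and marker genes, the 4 smallest p-values of the difference between segments in each direction, and further list members, Aldh1l1 and Rps4x, chosen after their values were seen. The comparison, the gene lists and the named genes were chosen with earlier results of these data known.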

Additional observations from a re-analysis of the deposited data

Results flagged for a closer look

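Within the groups of 4 libraries, the gap of the highest or lowest library to its nearest neighbour was set against the group's whole range. Of 186 groups examined, 29 passed Dixon's 95% critical value. That value flags about 1 group in 20 when values are independent and normally distributed. CPM are skewed and these genes vary together, so the number to be had by chance is not known here. Many flags belong to a few libraries. EtOH D1 was the highest EtOH library for Myh11 (gap over range 0.921), Des (0.903), Rn45s (0.86) and Retnlb (0.863). EtOH D2, the library with the most Hoxb13, was the highest for Adh1 (0.869), Aldh1l1 (0.839), Rps2 (0.836) and Rps4x (0.883), and the lowest for 4930539E08Rik (0.86). EtOH D4 stood above the other EtOH libraries for Sarnp (0.88), Tmem63b (0.867) and Tff3 (0.844).

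Fat genes were flagged for D3 in both groups, with Cfd at 0.987 and Car3 at 0.858 in EtOH D3, and Cfd at 0.86, Car3 at 0.836 and Adipoq at 0.859 in control D3. Car3, an adipose carbonic anhydrase, was at 2.17, 2.05, 5.49 and 1.62 CPM in EtOH and 2.58, 5.43, 70.4 and 13.7 CPM in control libraries. Control D1, a distal library, stood apart as the highest control library for Hoxb13 (0.998), Hoxd13 (1.0), Hoxa13 (0.941), Muc2 (0.921), Acta2 (0.888), Des (0.932) and Sparc (0.894), and as the lowest for Anks4b (0.953). Control D2 was flagged for Reg3b (0.996) and Reg3g (0.992), and control D4 for Aldh2 (0.906) and for Defa17 (1.0), which had 1 count there. What set these libraries apart was not tested.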

How the results depend on the processing

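The count of called genes in colon was 1 in the fit described, with DESeq2 size factors, without the low-count filter and without Rn45s. DESeq2 called 2 genes (Rps4y2 and Ddx60) and limma-voom with sample weights 3 (both and 4930539E08Rik). The count was 0 with limma-voom, the distal Hox covariate, the 8 colon libraries alone, all 27 libraries, the authors' normalized table with limma, and, as settings added after seeing the data, the 8 colon libraries alone with the distal Hox covariate or with the replicate block. Leaving out each library in turn gave 0 to 1 calls, 1 only without control D1. The setting without the 3 distal libraries, also added later, called 1 gene, Aldh1l1 (log2 fold change -3.27), whose sign turned. The replicate block on 15 libraries called 0, with 481 genes at an unadjusted p under 0.05 against 326 in the fit described (edgeR). Deviations of same-numbered EtOH and control libraries correlated at 0.555, -0.031, 0.459 and 0.184. Those of different-numbered libraries ran from -0.601 to 0.315, so D1 and D3 lay above all of them and D2 and D4 did not. Whether the numbers pair samples was not settled, and the fit described does not pair them. For the difference from jejunum DESeq2 called 2 and all other settings 0. The Rn45s difference ranged from -2.16 (without EtOH D1) to 6.06 percentage points when 1 library was left out. The difference in detected genes ranged from -35.8 (without control D2) to 245.5 genes, and was -90.75 genes after thinning every library to 3536937 counts. Among 90 named genes fitted, 21 changed sign in some setting, Aldh1l1 among them, and 69 kept it in all. The causes were not tested. With 4 libraries a group and 3 of 8 distal, small differences cannot be detected, and distal transcripts and treatment can be told apart only in part.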
